A study of Sus scrofa with 15 samples.

Results

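Glucose is made and broken down along largely the same chain of enzymes, and the 10 genes described here encode enzymes on both sides of that chain. They were chosen by name: 4 enzymes of gluconeogenesis (PCK1, PCK2, G6PC1 and FBP1) and 6 enzymes of glycolysis or of the exchange between pyruvate and lactate (LDHA, LDHB, PKM, GPI, TPI1 and GAPDH). The choice was made with earlier results of these data known, so counts of differences among them are a description. A probe could be assigned to 9 of the 10 genes, out of 3020 genes with an assigned probe on the array. No probe was assigned to PKM, which encodes a pyruvate kinase, and it is not analysed here. The other 9 genes had 35 probes among 43603.

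Kidney tissue came from 15 female Yorkshire pigs aged 20 weeks, 5 in each of 3 groups. Every pig had lost the left kidney 1 week before, and in every pig the artery and vein of the remaining right kidney were clamped together for 90 min. The control group had no ischemic preconditioning (IPC), the rIPCe group had remote IPC just before the ischemia (early window), and the rIPCl group had it 24 h before (late window). Remote IPC was 2 cycles in which the right external iliac artery was clamped for 10 min and released for 10 min. The kidney was taken 72 h after surgery. Kidneys without ischemia were not analysed here, so each level is that of a kidney after ischemia, and the control group is not a healthy kidney. The pigs were fasted before anesthesia and fed freely after surgery, and the feeding state when the kidney was taken is not given in the sources used here.

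Gluconeogenesis rebuilds glucose from lactate, glutamine and glycerol. It runs in liver and kidney, and in the kidney it belongs to the proximal tubule, which is also the segment hit hardest by ischemia. PCK1 (in the cytosol) and PCK2 (in mitochondria) make phosphoenolpyruvate from oxaloacetate, FBP1 removes a phosphate from fructose 1,6-bisphosphate, and G6PC1 releases free glucose in the last step. GPI, TPI1 and GAPDH catalyse reversible steps that both directions use, and lactate dehydrogenase, built from LDHA and LDHB subunits, interconverts pyruvate and lactate.

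Each pig had 1 array of a single colour, and a level is the log2 of the background-corrected signal after quantile normalization, which gives all arrays the same distribution of signals. A difference of 1 on this scale is a 2-fold change. Each gene is represented by its brightest probe. A difference was called when the adjusted p of limma, a linear model fitted to all 43603 probes, was under 0.05 after Benjamini-Hochberg adjustment over all probes. Levels of different probes cannot be set against each other, so each gene was compared with itself between arrays. Each of the 35 probes exceeded background clearly on every array, and saturation was not reached. Over the whole array 62.2% to 69.5% of spots passed that limit in control samples, 67.4% to 73.9% in rIPCe samples and 71.8% to 74.2% in rIPCl samples. The arrays came on 4 slides, which largely followed the groups: control arrays 1 to 4 were on slide 1, control array 5 and rIPCe arrays 1 to 3 on slide 2, rIPCe arrays 4 and 5 and rIPCl array 1 on slide 3, and rIPCl arrays 2 to 5 on slide 4. Each pair of neighbouring groups was joined by a single array on a shared slide.

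The 2 gluconeogenic enzymes at the glucose end of the path, G6PC1 and FBP1, fell in the rIPCl group relative to the control group in the fit of all 15 arrays. Neither call held in a limma fit of the 2 groups alone (adjusted p = 0.0666 for G6PC1 and 0.0678 for FBP1), with the methods' t-test after adjustment (0.0942 and 0.0894), or with slide in the model. All 4 gluconeogenic enzymes had a lower mean in rIPCl than in the control group, with log2 fold changes from -3.28 to -0.77 and a median of -0.89, beside a median of -0.03 over all probes. Of the 5 glycolytic enzymes measured, 4 had a lower mean and 1 a higher mean, the log2 fold changes ran from -0.36 to 0.10 with a median of -0.21, and 0 were called. Thus 2 of 9 enzymes were called, where 6.27% of all probes were called, 3.58% as lower and 2.69% as higher. At an unadjusted p under 0.05 there were 3 of the 4 gluconeogenic and 1 of the 5 glycolytic enzymes, beside 26.8% of all probes. In a piece of whole kidney, fewer proximal tubule cells and less RNA per cell cannot be told apart.

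**Figure D1:**
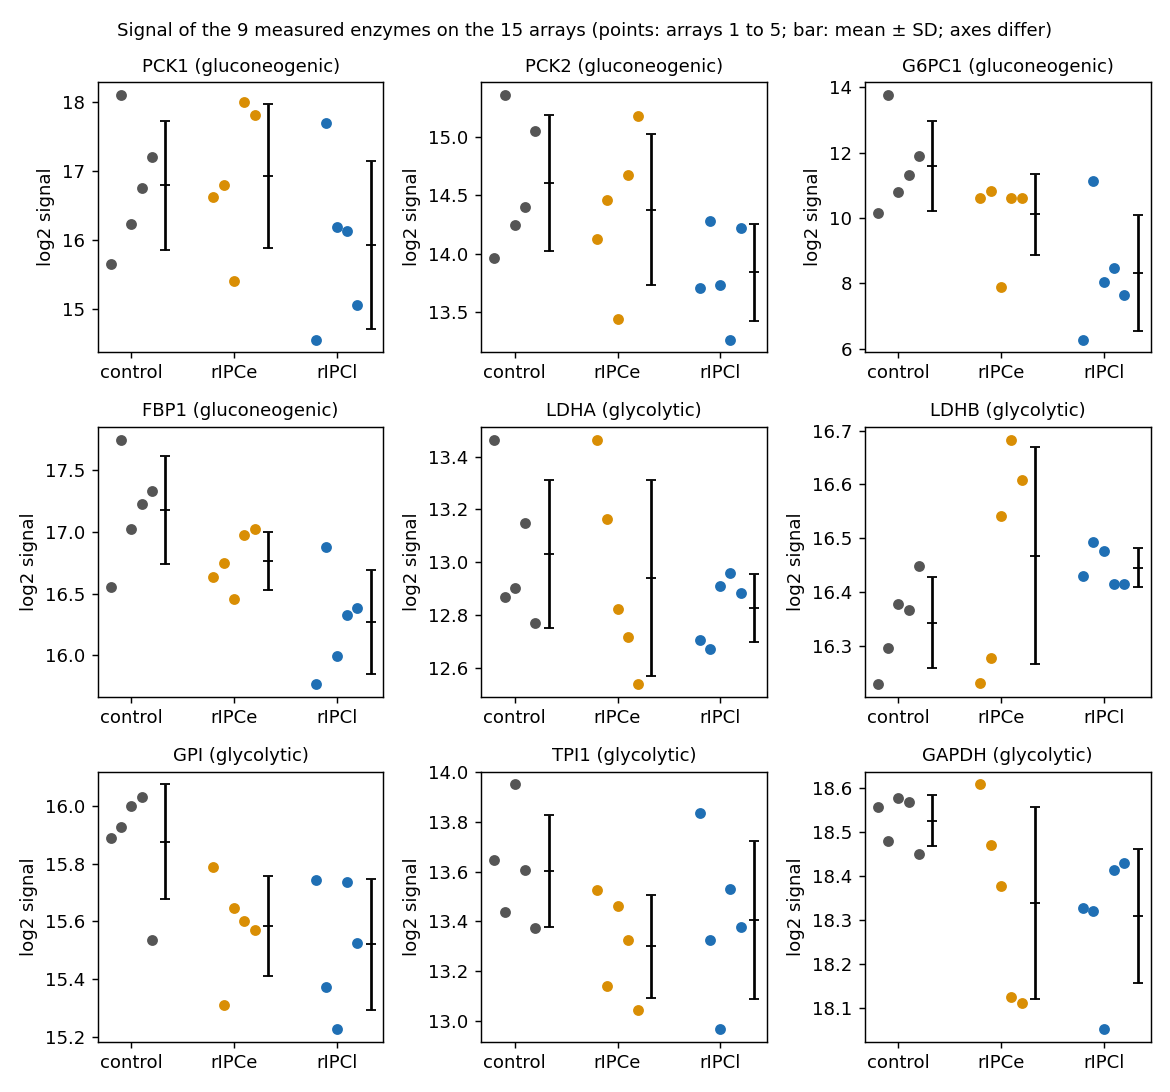
Log2 signal of each measured enzyme (vertical axis, a range of its own for each gene) by group (horizontal axis). Points are arrays 1 to 5 of a group from left to right and the bar beside them is the mean ± SD (n = 5); G6PC1 runs from 6.28 to 13.78, and for G6PC1 and FBP1 4 of the 5 rIPCl points lie below all control points.

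G6PC1, the catalytic subunit of glucose-6-phosphatase, had the largest difference of the 9 enzymes. Its log2 signal was 10.17, 13.78, 10.81, 11.31 and 11.90 on control arrays 1 to 5, which is 11.59 ± 1.38 (SD, n = 5). It was 10.61, 10.83, 7.88, 10.63 and 10.61 on rIPCe arrays 1 to 5 (10.11 ± 1.25) and 6.28, 11.12, 8.05, 8.46 and 7.65 on rIPCl arrays 1 to 5 (8.31 ± 1.77). Arrays 1, 3, 4 and 5 of rIPCl lay below all control arrays, while rIPCl array 2 lay above 2 of them, so the groups overlapped. The rIPCl group was lower than the control group by a log2 fold change of -3.28 (SE 0.87, 95% interval -5.16 to -1.40), a 9.73-fold lower signal, with a limma adjusted p of 0.0433. It was also the only enzyme here to meet the study's criteria of at least a 2-fold change and an unadjusted p under 0.05, which 5.83% of all probes met. The call rested on the full set of arrays: it was lost without any 1 of control arrays 2, 3 and 4, rIPCe arrays 2, 4 and 5 or rIPCl arrays 1, 3, 4 and 5, with adjusted p values of 0.0507 to 0.102 in these fits and log2 fold changes of -3.98 to -2.73 over all 15 omissions. G6PC1 had 1 probe, so no other probe bears on its value.

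FBP1 encodes fructose-1,6-bisphosphatase, which opposes phosphofructokinase. The control arrays 1 to 5 gave 16.56, 17.75, 17.03, 17.23 and 17.33 (17.18 ± 0.44), the rIPCe arrays 16.63, 16.75, 16.46, 16.97 and 17.02 (16.77 ± 0.24), and the rIPCl arrays 15.76, 16.88, 15.99, 16.33 and 16.38 (16.27 ± 0.42). As with G6PC1, arrays 1, 3, 4 and 5 of rIPCl lay below all control arrays and rIPCl array 2 did not. The log2 fold change in rIPCl was -0.91 (SE 0.23, 95% interval -1.40 to -0.41), a 1.88-fold lower signal, with a limma adjusted p of 0.0386. All 3 FBP1 probes were called, with log2 fold changes from -1.44 to -0.91. The call was lost without any 1 of control arrays 2, 3 and 4 or rIPCl arrays 3, 4 and 5, with adjusted p values of 0.0686 to 0.0922, and the log2 fold change stayed between -1.06 and -0.77 over the 15 omissions.

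The calls of both genes ended with slide in the model. With slide as a random block the log2 fold changes were -3.74 for G6PC1 (limma adjusted p = 0.238) and -1.06 for FBP1 (adjusted p = 0.227). With slide as a fixed block, in which the comparison passes through control array 5 and rIPCl array 1 alone, they were -6.47 (adjusted p = 0.259) and -1.95 (adjusted p = 0.172). No slide held both control and rIPCl arrays. On slide 3, rIPCl array 1 was lower than the mean of rIPCe arrays 4 and 5 by a log2 difference of -4.34 for G6PC1 and -1.23 for FBP1, values without a test.

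PCK1 encodes the cytosolic phosphoenolpyruvate carboxykinase, the classic hormone-controlled step of the path. Control arrays 1 to 5 gave log2 signals of 15.65, 18.11, 16.23, 16.76 and 17.21 (16.79 ± 0.94), rIPCe arrays gave 16.63, 16.79, 15.40, 18.00 and 17.81 (16.93 ± 1.05), and rIPCl arrays gave 14.55, 17.70, 16.18, 16.13 and 15.05 (15.92 ± 1.22). Only rIPCl arrays 1 and 5 lay below all control arrays, and rIPCl array 2 was above 4 of them. The log2 fold change in rIPCl was -0.87 (SE 0.63, limma adjusted p = 0.401), and its 95% interval of -2.23 to 0.49 includes both no difference and a more than 4-fold lower level. The 5 PCK1 probes gave -1.12 to -0.84.

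PCK2, the mitochondrial form, had control values of 13.97, 15.36, 14.25, 14.41 and 15.05 (14.61 ± 0.58). In the rIPCe group they were 14.12, 14.46, 13.45, 14.68 and 15.18 (14.38 ± 0.65), and in the rIPCl group 13.71, 14.28, 13.73, 13.27 and 14.22 (13.84 ± 0.42). Arrays 1, 3 and 4 of rIPCl were below all control arrays. The log2 fold change was -0.77 in rIPCl (SE 0.33, 95% interval -1.48 to -0.05), which did not pass the adjustment (limma adjusted p = 0.16). Its 3 probes gave -0.77 to -0.60.

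**Figure D2:**
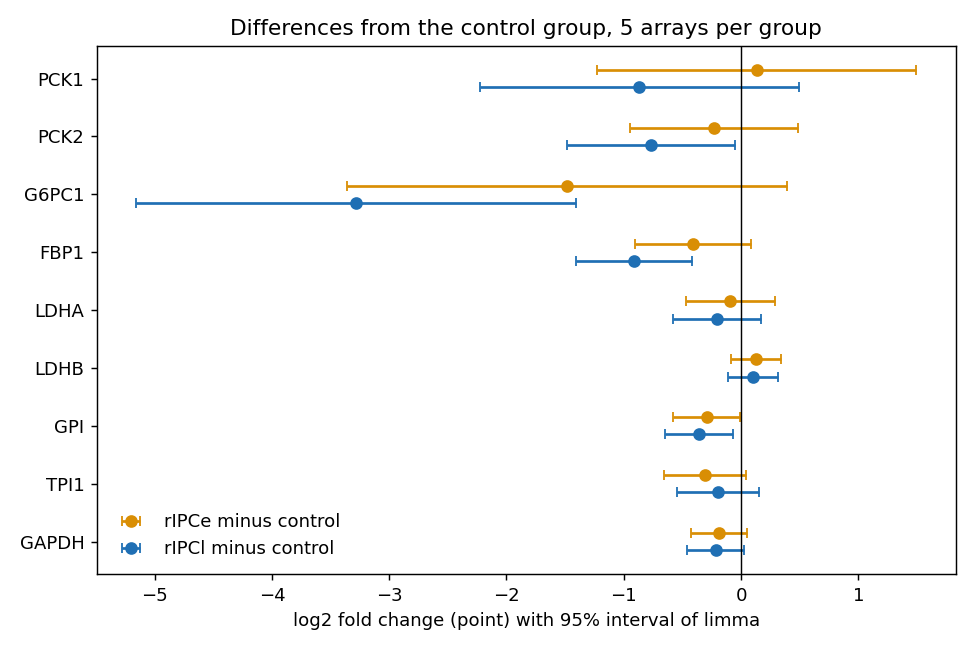
Log2 fold change (horizontal axis) of each enzyme in rIPCe and in rIPCl relative to the same 5 control arrays, with the 95% interval of limma. In rIPCl the points of the 4 gluconeogenic enzymes lie between -3.28 and -0.77 and those of the 5 glycolytic enzymes between -0.36 and 0.10; the intervals are widest for G6PC1 and PCK1.

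The gluconeogenic enzymes differed between pigs of the same group, in an order that the 4 genes shared fully in the control group and in part in the other groups. On the control arrays PCK1, PCK2, G6PC1 and FBP1 stood in 1 and the same order, with array 2 highest, then arrays 5, 4 and 3, and array 1 lowest. All 4 were lowest on array 3 of the rIPCe group, and all 4 were highest on array 2 of the rIPCl group. The rest of the order was not shared: the 4 genes had 3 different orders in rIPCe, with different highest arrays, and 4 different orders in rIPCl, with different lowest arrays. Relative to each gene's own mean over the 15 arrays, all 4 were below it on rIPCl arrays 1, 3, 4 and 5 and above it on rIPCl array 2. PCK2 was close to its mean on rIPCl array 2 (0.004) and rIPCl array 5 (-0.05). All 4 were also above their means on arrays 2, 4 and 5 of both the control and the rIPCe group, and below them on rIPCe array 3. These 4 genes were measured on the same arrays, so their orders are not separate observations of the pigs. The pooled SD within groups was 1.48 for G6PC1, which is wider than 99.6% of the 25828 probes that exceeded background on every array, and 1.07 for PCK1 (98.8%). It was 0.56 for PCK2 (89.2%) and 0.38 for FBP1 (67.7%).

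The glycolytic enzymes were steadier. Their pooled SDs within groups were 0.28 for LDHA, 0.25 for TPI1, 0.20 for GPI, 0.16 for GAPDH and 0.13 for LDHB, and the last lies above that of only 3.84% of the same probes. The intervals of their differences from the control group were accordingly narrow, and in rIPCl none of them reached a 2-fold change at either end. These SDs are those of the brightest probes, and other LDHB probes had an SD of up to 0.45 in rIPCe.

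**Figure D3:**
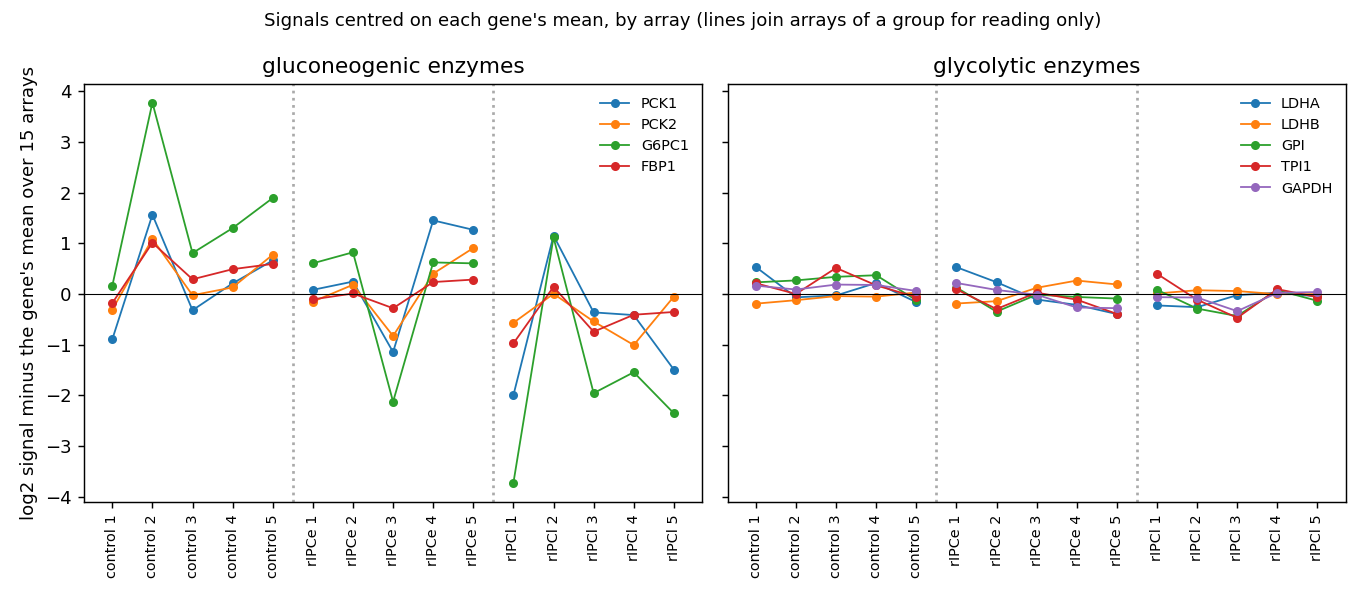
Log2 signal of each enzyme minus that gene's mean over the 15 arrays (vertical axis, the same for both panels), by array and group (horizontal axis). All 4 gluconeogenic enzymes peak at control array 2 and at rIPCl array 2 and are lowest of their group at rIPCe array 3, other arrays of rIPCe and rIPCl differ in order between the genes, and the glycolytic enzymes stay close to 0.

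GAPDH, glyceraldehyde-3-phosphate dehydrogenase, was the internal control of the study's RT-PCR, so its own level matters to any value scaled by it. The study's primers for it are shown for that reason, in lower case and 5′ to 3′.
GAPDH forward primer: gagaagtatgacaactccctcaaga
GAPDH reverse primer: catcaaaagtggaagagtgagtgtc
On the arrays the GAPDH probe had 18.56, 18.48, 18.58, 18.57 and 18.45 in the control group (18.53 ± 0.06), 18.61, 18.47, 18.38, 18.12 and 18.11 in rIPCe (18.34 ± 0.22), and 18.33, 18.32, 18.05, 18.41 and 18.43 in rIPCl (18.31 ± 0.15). All 5 rIPCl arrays lay below all 5 control arrays, which was true of none of the other 8 enzymes and of 6.76% of all probes. The difference was small, a log2 fold change of -0.22 in rIPCl (SE 0.11, 95% interval -0.46 to 0.02, limma adjusted p = 0.231). Within rIPCe the 3 arrays of slide 2 lay above the 2 arrays of slide 3. GAPDH was among the brightest probes, with 49 probes brighter. Its second probe gave -0.39, and there the rIPCl and control groups overlapped, with 17.04 on rIPCl array 1 and 16.855 on control array 5.

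GPI, glucose-6-phosphate isomerase, had control values of 15.54 to 16.03, rIPCe values of 15.31 to 15.79 and rIPCl values of 15.23 to 15.74. Control array 5 lay within the range of both other groups and the other 4 control arrays above them. Those 4 were the arrays of slide 1, which held no array of another group. The log2 fold change was -0.36 in rIPCl (95% interval -0.64 to -0.07, limma adjusted p = 0.112) and -0.29 in rIPCe (adjusted p = 0.346), and the 3 probes gave -0.43 to -0.28 in rIPCl. Without control array 5 the rIPCl difference of GPI was -0.44 and passed the test (adjusted p = 0.0449). In that fit no control array shared a slide with another group, so slide and group cannot be told apart. TPI1, triosephosphate isomerase, had group means of 13.60 ± 0.23, 13.30 ± 0.21 and 13.41 ± 0.32 in control, rIPCe and rIPCl, and log2 fold changes of -0.20 in rIPCl (95% interval -0.55 to 0.15, adjusted p = 0.458) and -0.30 in rIPCe (adjusted p = 0.411). Its groups overlapped in both comparisons.

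The lactate dehydrogenase subunits had opposite signs in rIPCl by their brightest probes, and neither passed the test. LDHA, the subunit that predominates in muscle, had means of 13.03 ± 0.28 in the control group, 12.94 ± 0.37 in rIPCe and 12.83 ± 0.13 in rIPCl, with a log2 fold change of -0.21 in rIPCl (95% interval -0.58 to 0.17, limma adjusted p = 0.476). LDHB, the subunit of heart and other aerobic tissue, had 16.34 ± 0.08, 16.47 ± 0.20 and 16.45 ± 0.04, with 0.10 in rIPCl (95% interval -0.11 to 0.32, adjusted p = 0.534). The 12 LDHB probes gave -0.04 to 0.26, with 3 of them below 0, so the sign of LDHB depended on the probe. All of them belong to 1 of the 2 gene records that the annotation lists under that symbol. With slide as a fixed block the differences of all 5 glycolytic enzymes in rIPCl turned sign, to 0.46 for LDHA, -0.32 for LDHB, 0.20 for GPI, 0.65 for TPI1 and 0.25 for GAPDH, none of which passed the test.

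**Figure D4:**
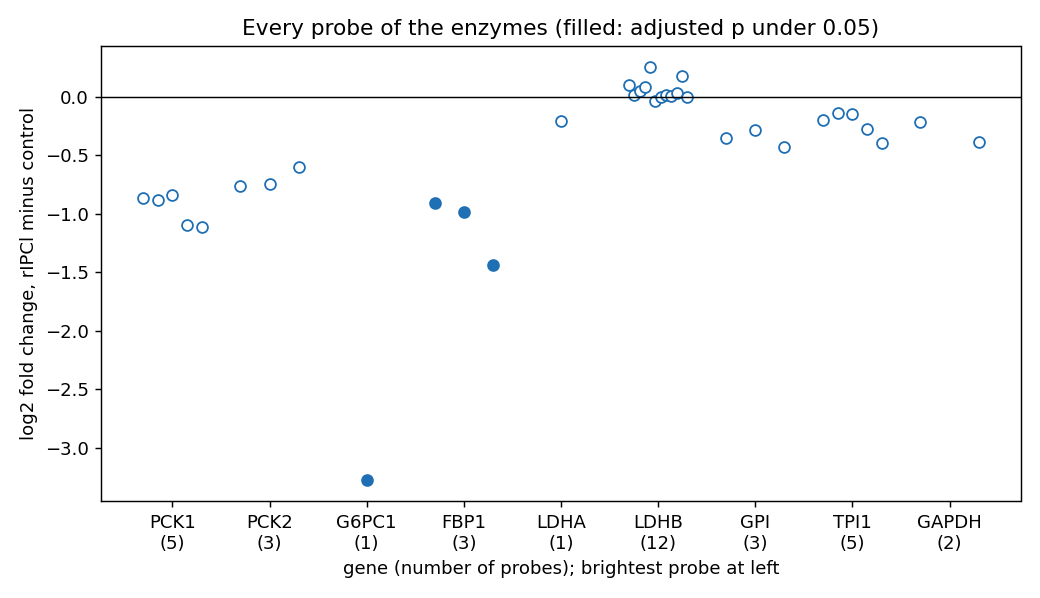
Log2 fold change of rIPCl relative to control (vertical axis) for each of the 35 probes, grouped by gene with the number of probes (horizontal axis); filled points have a limma adjusted p under 0.05. The 4 filled points are the 3 probes of FBP1 and the single probe of G6PC1.

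In the early window no enzyme passed the test against the control group. Of the 9 enzymes 0 were called in rIPCe by limma, where 0.00229% of all probes were called, 1 of 9 had an unadjusted p under 0.05 (GPI, beside 14.1% of all probes), and 0 met the study's criteria, which 2.18% of all probes met. The log2 fold changes were -1.48 for G6PC1 (95% interval -3.36 to 0.40, adjusted p = 0.456), -0.41 for FBP1 (adjusted p = 0.43), -0.23 for PCK2 (adjusted p = 0.79) and 0.14 for PCK1 (adjusted p = 0.946). The sign of PCK1 turned without control array 1, control array 3, rIPCe array 4 or rIPCe array 5, over a range of -0.15 to 0.52. Of the rIPCe arrays, array 3 was the only one below all control arrays for each of the 4 gluconeogenic genes. On slide 2, where control array 5 stood beside rIPCe arrays 1 to 3, the differences without a test were -2.13 for G6PC1, -1.04 for PCK2, -0.93 for PCK1 and -0.72 for FBP1. For all 5 glycolytic enzymes the sign of the rIPCe difference turned on that slide, with values of -0.10 for LDHB and 0.0014 to 0.38 for the other 4. Since the rIPCe and rIPCl differences are taken from 1 set of control arrays, they are not independent.

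Set directly against each other, the late and early windows did not differ by the test for any enzyme (0 of 9 by limma, beside 0% of all probes), and 1 of 9 had an unadjusted p under 0.05, beside 3.85% of all probes. The log2 differences of rIPCl minus rIPCe were -1.80 for G6PC1 (95% interval -3.68 to 0.08), -1.003 for PCK1 (-2.36 to 0.36), -0.54 for PCK2 (-1.25 to 0.18) and -0.50 for FBP1 (-0.99 to -0.002), all with a limma adjusted p of 0.979. Those of the glycolytic enzymes lay between -0.12 and 0.11.

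As a summary per array, the mean of the centred gluconeogenic values minus that of the centred glycolytic values was 0.54 ± 0.91 in the control group, 0.20 ± 0.82 in rIPCe and -0.74 ± 0.94 in rIPCl. The 3 groups overlapped, with ranges of -0.50 to 1.83, -1.10 to 0.96 and -1.86 to 0.74. The difference from the control group was -1.28 in rIPCl, made up of -0.80 against 0.65 for the gluconeogenic mean and -0.07 against 0.11 for the glycolytic mean. In rIPCe the difference was -0.35. The values were not scaled by their spread, so G6PC1 weighed most in both differences. Its log2 fold change was -3.28 in rIPCl, beside -0.91 for FBP1, -0.87 for PCK1 and -0.77 for PCK2. In rIPCe it was -1.48, beside -0.41 for FBP1, 0.14 for PCK1 and -0.23 for PCK2.

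Genes of the neighbouring steps were read from written lists of each pathway, of whose 151 genes 62 could be assigned to a probe. The lists, too, were chosen with earlier results of these data known. In rIPCl 44 of the 62 had a lower and 18 a higher mean than in the control group, with a median log2 fold change of -0.31, and 6 were called, all of them lower, beside 3.58% of all probes called lower. With slide as a random block 0 of the 62 were called. All 8 measured genes of the other steps of gluconeogenesis had a lower mean (median -0.44), and 2 of them were called: GPD1, which links glycerol to the path (-0.65, limma adjusted p = 0.0283), and GK, the kinase that takes up glycerol (-0.86, adjusted p = 0.0395). Both had all rIPCl arrays below all control arrays, as 6.76% of all probes had, GPD1 with 14.41 to 15.03 against 15.27 to 15.68 and GK with 11.51 to 12.56 against 12.78 to 13.29. The 8 measured genes of the other steps of glycolysis had a median of 0.13, with 3 lower, 5 higher and 0 called, and the one of smallest p was PGK1, phosphoglycerate kinase (-0.31, adjusted p = 0.0917). HK2 and LDHC, among these 8, exceeded background clearly on none of the arrays, so the signs of their differences (0.17 and -0.30) carry no direction.

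The other 4 calls came from 4 different lists. GLUD1, glutamate dehydrogenase, which turns glutamate into 2-oxoglutarate, was lower by a log2 fold change of -1.14 (limma adjusted p = 0.0358), with 13.57 to 13.81 on the rIPCl arrays and 13.83 to 15.77 on the control arrays. SORD, which makes fructose from sorbitol, was lower by -1.03 (adjusted p = 0.0366), with overlapping groups. The other of the 2 measured genes of its list, AKR1B1, was higher by 0.71 and was not called (adjusted p = 0.0559). AKR1B1 was the only 1 of the 62 genes that was higher at an unadjusted limma p under 0.05, beside 25 that were lower. IDH3B, a subunit of mitochondrial isocitrate dehydrogenase, was lower by -0.51 (adjusted p = 0.0417), and all 8 measured genes of the tricarboxylic acid cycle had a lower mean (median -0.37, 1 called). DLD, the dihydrolipoamide dehydrogenase that the pyruvate and 2-oxoglutarate dehydrogenase complexes use, was lower by -0.46 (adjusted p = 0.0347).

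In the remaining lists 0 genes were called in rIPCl. The 15 measured regulators of the 2 pathways had a median of 0.01, with 6 lower and 9 higher, and KLF15, a transcription factor of amino acid and glucose metabolism, had the smallest p (-0.56, limma adjusted p = 0.084). Among the 5 genes of glucose and lactate transport (median -0.62) it was BSG, the partner protein of lactate transporters (-0.49, adjusted p = 0.0634). Of the 3 genes of the pentose phosphate pathway (median -0.41) it was TKT, transketolase (-0.54, adjusted p = 0.0781), and of the 6 genes of the hypoxia response (median -0.49) P4HA1, a collagen prolyl hydroxylase (-0.59, adjusted p = 0.0902). PFKFB1 and CEBPB among the regulators, and EPO of the hypoxia response, did not exceed background clearly on every array. In rIPCe 0 of the 62 genes were called, 46 had a lower mean, and the median was -0.19. The count in rIPCl depended on the setting: it was 0 without control array 2 or 3 or rIPCl array 3, 4 or 5, 1 without control array 4, 3 without rIPCl array 2, 10 without control array 5, 11 without rIPCl array 1, and 0 and 1 with slide as a random and a fixed block.

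**Figure D5:**
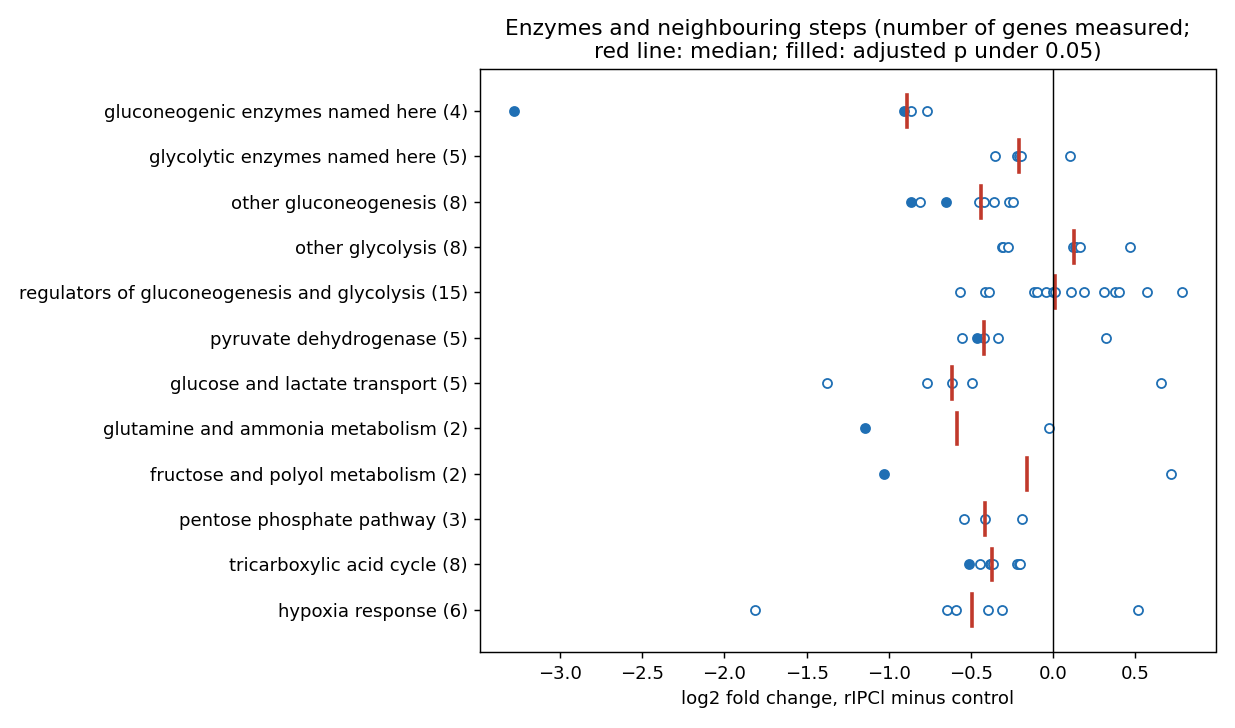
Log2 fold change of rIPCl relative to control (horizontal axis) for each measured gene of the named enzymes and of the neighbouring steps (vertical axis, with the number of genes); the red line is the median and filled points have a limma adjusted p under 0.05. All genes of the other steps of gluconeogenesis and of the tricarboxylic acid cycle lie left of 0, while those of the other steps of glycolysis lie on both sides. HK2 and LDHC, in the last list, did not clearly exceed background on any array.

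Markers of kidney and immune cells were read in the same comparison, in which 3.58% of all probes were called lower and 2.69% higher. The proximal tubule list had 9 of its 16 genes measured, each clearly above background on every array. In rIPCl 8 of the 9 had a lower mean (median -0.45) and 2 were called lower, SLC7A9 (-1.24, limma adjusted p = 0.0239) and SLC4A4 (-1.13, adjusted p = 0.0433), while GATM had 1.05 (adjusted p = 0.104). The summed signal of the 9 genes overlapped between groups: control samples spanned 75276 to 141982, rIPCe samples 68098 to 144999 and rIPCl samples 81448 to 139116. The sums given here add linear signals, so bright probes weigh most and a rise of 1 gene can offset falls of others. GATM had log2 means of 13.67 in the control group and 14.72 in rIPCl. Those of SLC7A9 were 12.94 and 11.70, and those of SLC4A4 were 11.65 and 10.52. Of the macrophage list 6 of 9 genes were measured, 5 with a higher and 1 with a lower mean in rIPCl (CD14, -0.12). Of these genes 3 were called higher in rIPCl, with summed signals of 10096 to 33662 in the control group and 21073 to 77181 in rIPCl. Of the T and NK cell list 7 of 8 were measured, all with a higher mean in rIPCl and 0 called, with summed signals of 2023 to 3923 and 2822 to 8434. Among these genes CD4 exceeded background clearly on 1 of the 5 control arrays and CD3D on 3. Of the tubular injury list 6 of 9 were measured, 5 with a higher and 1 with a lower mean (KRT8, -0.25), and 2 were called higher. The summed signals were 93703 to 319490 in the control group and 245575 to 344059 in rIPCl. SOX9 of this list exceeded background clearly on 1 of the 5 control arrays. In rIPCl 1 of 4 measured fibroblast genes and 1 of 3 measured B cell genes were also called higher, and 1 of the B cell genes was well above background on none of the control arrays. In the distal nephron, podocyte and endothelium lists 0 genes were called. The part of these cell types and of tubular injury in the difference of the gluconeogenic enzymes was not tested.

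Over the 15 arrays, the genes closest to each enzyme were ranked by the mean absolute difference of centred log2 signals, among 2368 genes that exceeded background on every array. For PCK1 they were PDK4, a kinase that switches off pyruvate dehydrogenase (0.44), VNN1, a pantetheinase (0.46), and PLIN5, a lipid droplet protein (0.51), beside a median of 0.93 over the genes compared. PDK4 had 0.05 in rIPCe and -0.56 in rIPCl. For G6PC1 the closest were CYP2C49, a cytochrome P450, PLG, plasminogen, and BHMT, betaine-homocysteine methyltransferase, at 0.83 to 0.87 (median 1.57), and for FBP1 they included QDPR at 0.16 and RGN at 0.17 (median 0.48). For LDHA they were UCHL3, PSMB4 and VCP at 0.10 to 0.12 (median 0.33), and for GAPDH COPS4, SRSF9 and FTH1 at 0.07 to 0.08 (median 0.28). These genes share the arrays and their normalization with the enzymes, and the likeness is a description.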

How the data were processed

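RNA of each of 15 pig kidneys was hybridised to 1 porcine Agilent array with a single dye. Deposited were the scanner results of Agilent Feature Extraction 11.0.1.1, in which the authors give an intensity per spot on a linear scale, corrected for background within each array and not normalized between arrays, and a table that holds the same intensities. Here 1417 control spots per array and spots marked as outliers (1 to 70 per array) were left out, log2 of the processed signal was quantile normalized between arrays, and repeated spots were averaged per probe. Groups were compared with limma 3.58.1, by lmFit and eBayes under R 4.3.3, all 3 groups sharing 1 fit. The methods' t-test was an alternative. Figures were drawn with matplotlib.

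The files name no genome build. RefSeq accessions paired 6686 probes with 3020 genes through an annotation of Sscrofa11.1, and no coordinates are given. From each list the genes named were those with an adjusted p under 0.05, and otherwise the gene of smallest p in rIPCl. For PCK1, G6PC1, FBP1, LDHA and GAPDH the 3 genes of closest pattern were named, except 1 that is not reported here. The enzymes and gene lists were chosen with earlier results of these data known. Arrays of 1 number in different groups did not deviate together (correlation over 0.1 in 2 of 15 pairs), so numbers were not taken as pairs. The scripts were tested on simulated data. The intervals of the main fit rest on 5 arrays per group and do not take the slides into account.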

Additional observations from a re-analysis of the deposited data

Results flagged for a closer look

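In 3 of the 27 groups of 5 values examined (9 enzymes in 3 groups), 1 array stood far from the other 4, where chance gives about 1 in 20. In rIPCe, G6PC1 was 7.88 on array 3 and 10.61 or more on the other 4, so that this gap took a share of 0.926 of the whole range. In the control group, GPI was 15.54 on array 5 and 15.89 or more on the others (0.716). In rIPCl, GAPDH was 18.05 on array 3 and 18.32 or more on the others (0.714). Without rIPCe array 3 the log2 fold change of G6PC1 in rIPCe was -0.92, in place of -1.48, and was not called by limma (adjusted p = 0.72).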

How the results depend on the processing

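The 4 gluconeogenic enzymes kept a lower mean in rIPCl than in the control group under all 27 alternatives run, while the 2 calls did not hold under all. The number of enzymes called in rIPCl was 2 with each array's 75th percentile subtracted (which moved the median of all probes to -0.11), 1 with normexp on the median signal (FBP1 -0.75, limma adjusted p = 0.0628), and 0 with only the 2 groups compared, with slide as a fixed or random block and with the methods' t-test (adjusted p = 0.0942 for G6PC1 and 0.0894 for FBP1). Array weights added GPI (-0.42, adjusted p = 0.0154). Enzymes at the study's criteria in rIPCl, 1 in the report, were 4 with slide fixed, 2 with slide random and 2 when each gene's probes were averaged. Genes of the neighbouring steps called, 6 in the report, were 15 with the 75th percentile, 24 with array weights, 1 with slide fixed, 0 with slide random and 1 with the methods' t-test. With slide fixed the sign turned in rIPCl for LDHA (0.46), LDHB (-0.32), GPI (0.20), TPI1 (0.65) and GAPDH (0.25). In rIPCe it turned, with the same values within slide 2, for PCK1 (-0.93), LDHA (0.38), LDHB (-0.10), GPI (0.0452), TPI1 (0.0014) and GAPDH (0.0346). The cause of these changes was not tested.

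Leaving out 1 array at a time gave 0 to 3 enzymes called and 1 to 3 at the study's criteria in rIPCl, 0 and 0 in rIPCe, 0 in rIPCl against rIPCe, and 0 to 11 genes of the neighbouring steps. The gluconeogenic minus glycolytic difference was -1.65 to -0.96 in rIPCl and -0.61 to -0.02 in rIPCe. In rIPCe signs turned for PCK1 (-0.15 to 0.52), PCK2 (-0.43 to 0.00326) and LDHA (-0.22 to 0.0181). With replicate number as a block, although the numbers were not shown to pair the pigs, 2 enzymes were called in rIPCl and G6PC1 kept its call (-3.28, adjusted p = 0.0373), 1 enzyme met the study's criteria in rIPCe in place of 0, and 1 gene of the neighbouring steps was called. Normexp on the median signal and the count of neighbouring genes were added after seeing the data, since the files used hold no mean signal, and normexp on the mean signal was not run.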
